A study of Mus musculus with 6 samples.

Results

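Mcpt8, Prss34, Cma1, Tpsb2, Cpa3, Hdc, Fcer1a, Ms4a2, Il4 and Il1rl1 are 10 genes known from basophils and mast cells, and they were followed across 6 arrays of mouse hematopoietic stem cells (HSC). They were chosen by their levels on the arrays numbered 3, which had already been seen, and every probe set carrying the symbol of one of them alone was taken. That gave 9 genes with 1 probe set each among 28815 probe sets and 19935 genes with a symbol of their own. Il1rl1, the receptor for IL-33, is unnamed in the annotation used and has no value here. HSC give rise to every kind of blood cell, and the study asked which genes P-selectin (SELP), an adhesion receptor, controls in them. Its groups were WT HSC (3 arrays) and SELP -/- HSC (3 arrays), both of strain C57BL/6 and numbered 1 to 3 within each genotype, with no treatment named. Age, the way the HSC were sorted, the number of mice pooled per array and how the SELP allele was made are not given in the sources used here. Whether the arrays of a genotype hold RNA of separate mice is not stated either, so a p-value here reflects the spread among these samples alone, and that spread may be technical.

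Basophils and mast cells are granulated cells of bone marrow origin that share the high-affinity receptor for IgE and a store of histamine. Basophils finish their development in the marrow and circulate, while mast cells mature in tissues. Their granules hold different serine proteases in mice: mast cell protease 8 (Mcpt8) and the tryptase Prss34 are restricted to basophils, while the chymase Cma1 and the tryptase Tpsb2 are known from connective tissue mast cells.

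Selp itself was not analysed here because the annotation used gives its name to no probe set and the labels of genotype could not be checked on it. The arrays numbered 3 stood apart in both genotypes. Of 12 HSC genes, 11 were lower on both of them than on all of the other 4 arrays, against 20.0% of all probe sets. Their mean log2 level ran from 10.4 to 10.9 on the arrays numbered 1 and 2, and was 9.18 on WT 3 and 9.12 on SELP -/- 3. Xist, transcribed from the inactive X chromosome, measured from 12.08 to 13.60 on 5 arrays and 8.002 on SELP -/- 3. Of the Y-linked genes, chosen after their values were seen, Kdm5d measured from 7.24 to 8.61 on the arrays numbered 1 and 2 and 8.62 and 9.16 on WT 3 and SELP -/- 3, and Uty from 6.84 to 8.28 against 8.50 and 8.89. Eif2s3y measured 8.82, 6.44 and 8.68 on the WT arrays and 6.44, 7.77 and 9.59 on the SELP -/- arrays. SELP -/- 3, the array lowest in Xist, was thus the highest of the 6 for each of these Y-linked genes. WT 3 came next for Kdm5d and Uty. Its Xist level, 12.08, was below all 4 arrays numbered 1 and 2, though far above that of SELP -/- 3. The part of Xist and the Y-linked genes in the results, comparisons of SELP -/- 3 with WT 3 included, was not tested. The median probe set intensity of the 6 arrays ran from 563 to 751. Each level below is the log2 of the background-corrected, quantile-normalized intensity. The number 3 excess of a gene is its level on a genotype's array numbered 3 minus the mean of its arrays numbered 1 and 2. The genes were picked with that excess known, so it is given as a description, without a test.

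The 300 bases around the start sites of the basophil proteases, of 1 mast cell protease and of 2 genes shared by both cell types are printed because these genes had the contrasting values described next. They run 5′ to 3′ from 250 bases before the start site to 50 after it, and come from RefSeq on GRCm38.p6. Capitals mark the letters AGATAA, a core that GATA factors such as Gata2 recognise, on either strand (TTATCT is the same motif on the other strand). The windows are chr14:56085148-56085447 on the minus strand for Mcpt8, chr17:25298144-25298443 on the plus strand for Prss34, chr14:55944626-55944925 on the minus strand for Cma1, chr3:20242132-20242431 on the minus strand for Cpa3 and chr19:11623670-11623969 on the minus strand for Ms4a2.

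Mcpt8: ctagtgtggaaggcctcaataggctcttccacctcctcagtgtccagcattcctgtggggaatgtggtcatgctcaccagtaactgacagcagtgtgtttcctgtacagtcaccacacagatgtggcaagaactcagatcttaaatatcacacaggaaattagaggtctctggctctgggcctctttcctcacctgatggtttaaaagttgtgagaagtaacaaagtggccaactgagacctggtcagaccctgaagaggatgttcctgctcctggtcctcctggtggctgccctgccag

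Prss34: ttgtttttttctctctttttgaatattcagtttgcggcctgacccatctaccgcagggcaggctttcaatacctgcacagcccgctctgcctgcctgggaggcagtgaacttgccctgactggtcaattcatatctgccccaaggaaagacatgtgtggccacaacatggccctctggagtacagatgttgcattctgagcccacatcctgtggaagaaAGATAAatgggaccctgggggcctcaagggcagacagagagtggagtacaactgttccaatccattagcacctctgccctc

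Cma1: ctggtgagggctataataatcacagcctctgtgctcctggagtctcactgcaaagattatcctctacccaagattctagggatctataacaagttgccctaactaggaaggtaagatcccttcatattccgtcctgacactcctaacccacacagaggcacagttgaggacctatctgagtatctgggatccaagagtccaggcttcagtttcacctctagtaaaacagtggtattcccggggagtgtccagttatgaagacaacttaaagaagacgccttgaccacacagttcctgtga

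Cpa3: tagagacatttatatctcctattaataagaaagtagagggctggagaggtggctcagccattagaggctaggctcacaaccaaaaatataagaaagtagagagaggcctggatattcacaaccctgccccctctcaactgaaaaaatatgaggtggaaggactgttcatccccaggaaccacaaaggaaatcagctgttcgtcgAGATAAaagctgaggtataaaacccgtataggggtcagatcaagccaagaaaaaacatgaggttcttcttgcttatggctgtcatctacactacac

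Ms4a2: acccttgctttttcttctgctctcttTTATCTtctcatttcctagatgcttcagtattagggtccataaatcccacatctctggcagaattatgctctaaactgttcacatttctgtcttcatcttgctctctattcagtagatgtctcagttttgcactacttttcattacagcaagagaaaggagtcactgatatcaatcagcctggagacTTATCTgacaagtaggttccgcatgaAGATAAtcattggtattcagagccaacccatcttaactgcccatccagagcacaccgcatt

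AGATAA stood 31 bases before the start in Prss34, 46 before it in Cpa3, and 224, 37 and 11 before it in Ms4a2, counted to the first base of the match on the plus strand of the transcript. It was not in the Mcpt8 and Cma1 windows. Of the 10 genes, 9 were in the promoter table (Tpsb2 was not), and 5 of those 9 had the motif. By promoter it was in 6 of their 11 windows, against 11.2% of 32851 promoters of the same length. The other 2 genes were Fcer1a, 92 bases before the start, and Il1rl1, whose 2 listed starts had it 217 and 103 bases before them. TGTGGT, the core of RUNX sites, was in 5 of the 11 windows (Cma1, Cpa3, Fcer1a, Il1rl1 and Mcpt8) and in 16.8% of all promoters. CATGTG, an E-box, was in 3 (Fcer1a, Il4 and Prss34) against 14.2%, and CACGTG was in none of the 11 against 7.15%. TGATAA, TTGCNNAA and TTCNNNGAA, cores known for GATA, C/EBP and STAT factors, were found in 2, 3 and 1 of the 11 windows, against 9.05%, 10.8% and 8.30% of promoters. All were searched on both strands, and these matches describe letters, not binding.

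The basophil proteases were high on the arrays numbered 3 of both genotypes, and the mast cell proteases were higher there by a smaller factor. Mcpt8 (probe set 10420254) measured 755, 762 and 20149 intensity units on WT 1, 2 and 3, and 979, 830.5 and 16280 on SELP -/- 1, 2 and 3. In log2 levels these were 9.38, 9.65 and 14.17 in WT, and 9.60, 9.57 and 13.95 in SELP -/-. One array of each genotype was high, and the 2 genotypes overlapped. The excess was 4.65 in WT and 4.37 in SELP -/- (25.1-fold and 20.7-fold), the third largest mean excess of the 28815 probe sets. Prss34 (10442762) measured 9.52, 8.96 and 13.01 on the WT arrays and 9.25, 9.76 and 12.62 on the SELP -/- arrays, with an excess of 3.77 and 3.11, or 13.6-fold and 8.63-fold. Both basophil proteases thus showed the same arrays as high.

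Cma1 (10420225), the chymase of connective tissue mast cells, measured 7.97, 7.96 and 10.14 on the WT arrays and 7.92, 7.97 and 9.79 on the SELP -/- arrays. The 4 lower arrays ran from 7.92 to 7.97, and the excess was 2.17 and 1.84 (4.51-fold and 3.59-fold). Tpsb2 (10442786), a tryptase, measured 8.70, 8.49 and 10.96 on the WT arrays and 8.69, 8.57 and 10.42 on the SELP -/- arrays, with an excess of 2.36 and 1.79. It has a close relative, Tpsab1, so its probes may share transcripts and its value is uncertain. Averaged over the genes of each pair, the excess of the basophil proteases was 4.21 in WT and 3.74 in SELP -/-, and that of the mast cell proteases 2.27 and 1.81. The difference of 1.94 in WT and 1.93 in SELP -/- is one of excesses, since levels of different probe sets on an array cannot be compared, and it rests on 2 genes a side. In these bulk samples, more cells of a type and more RNA per cell cannot be told apart.

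**Figure D1:**
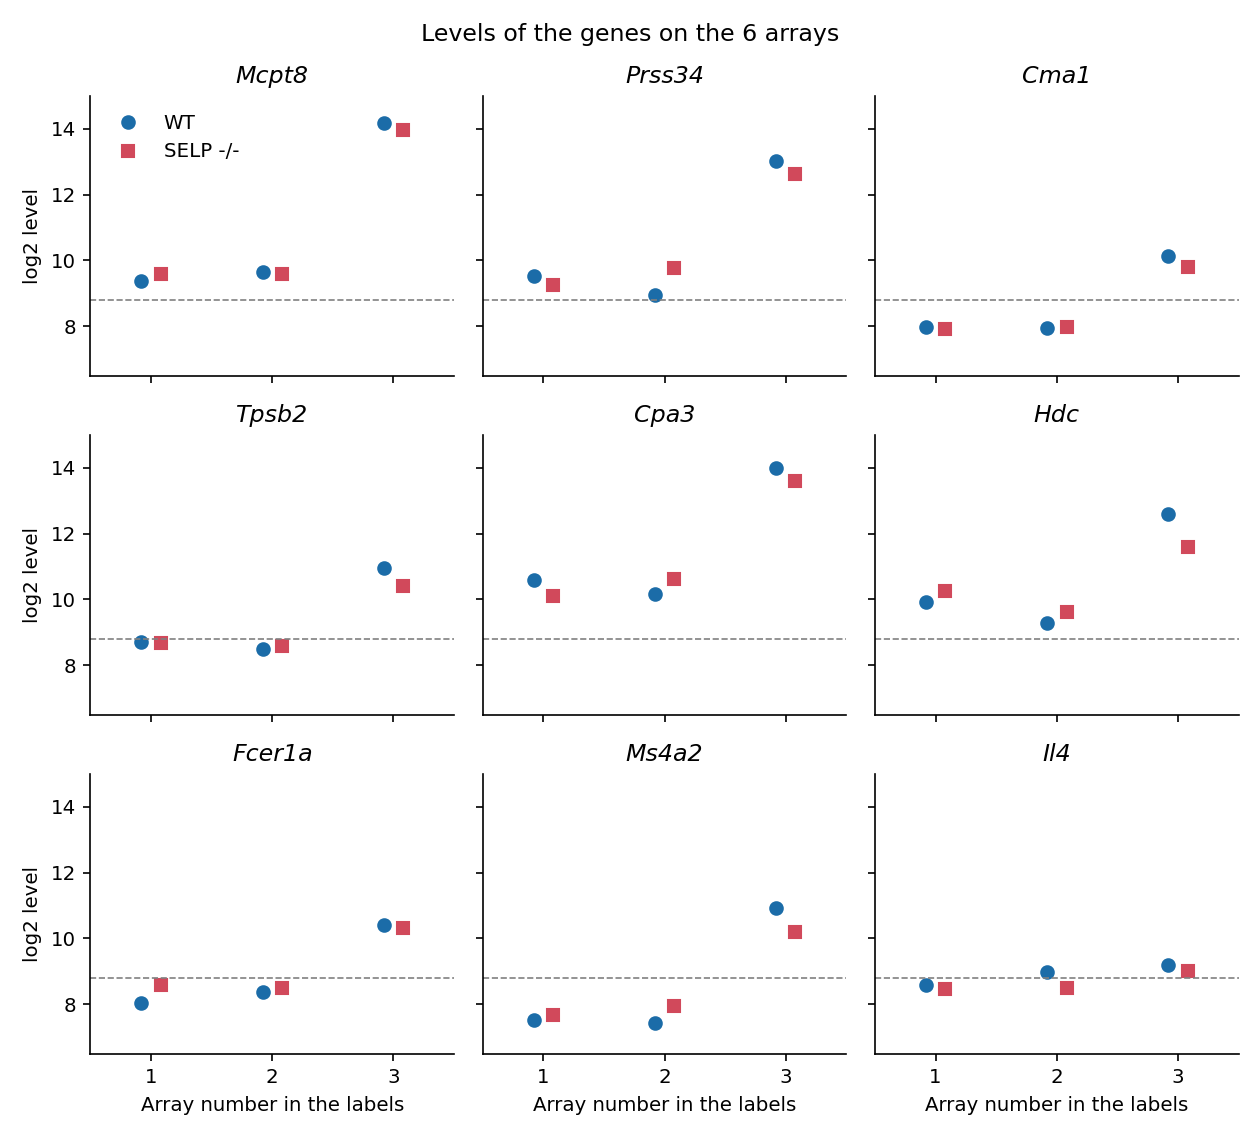
Log2 level (y axis) of each of the 9 genes on each of the 6 arrays, by array number (x axis) and genotype (marker), 1 point per array; the dashed line marks 8.79, the minimum mean level for a test. Each gene lies highest on the 2 arrays numbered 3, Mcpt8 at 14.17 and 13.95.

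Cpa3 and Hdc encode granule products of both cell types. Cpa3 (10497451), the carboxypeptidase A of mast cell granules, measured 10.58, 10.18 and 14.00 on the WT arrays and 10.10, 10.63 and 13.59 on the SELP -/- arrays, an excess of 3.62 and 3.22 (12.3-fold and 9.34-fold). Hdc (10487238), which makes histamine, measured 9.93, 9.29 and 12.60 on the WT arrays and 10.26, 9.63 and 11.60 on the SELP -/- arrays. Hdc had the widest gap between the arrays numbered 1 and 2, 0.65 in WT, where the 9 genes had a median gap of 0.26 over both genotypes and all probe sets 0.158. Its excess was 2.99 in WT and 1.65 in SELP -/-, or 7.92-fold and 3.14-fold.

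The subunits of the IgE receptor were high on the same arrays. Fcer1a (10360338), the chain that binds IgE, measured 8.03, 8.37 and 10.41 on the WT arrays and 8.59, 8.49 and 10.33 on the SELP -/- arrays, an excess of 2.21 and 1.79. Ms4a2 (10466216), the signal-amplifying beta chain, measured 7.54, 7.45 and 10.94 on the WT arrays and 7.68, 7.95 and 10.21 on the SELP -/- arrays, an excess of 3.44 and 2.39 (10.9-fold and 5.24-fold). The arrays numbered 1 and 2 held 4 of the 9 genes (Cma1, Tpsb2, Fcer1a and Ms4a2) below 8.79 in both genotypes, the minimum mean level for a probe set to be tested. At such levels background can make up part of the signal, which lowers a ratio. Both receptor chains separated the arrays numbered 3 from the rest without overlap.

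The cytokine differed in size from the granule and receptor genes. Il4 (10385832), the type 2 cytokine, measured 8.59, 8.97 and 9.18 on the WT arrays and 8.47, 8.51 and 9.001 on the SELP -/- arrays, an excess of 0.40 and 0.51, or 1.32-fold and 1.43-fold. Both arrays numbered 3 were above the other 4 here too, though WT 3 exceeded WT 2 by less than WT 2 exceeded WT 1. It was the 1 gene of the 9 with a mean excess under 2, and Fcer1a, at that value, and Cma1, at 2.01, were the nearest on the other side of it. Both arrays numbered 3 lay above the other 4 for 9 of 9 genes and for 17.0% of all probe sets, and the mean excess reached 1 for 8 of 9 and for 2.13%, and 2 for 8 of 9 and for 0.465%. The choice of genes used this contrast, so nothing is read from those shares. The median excess over the 9 genes was 2.99 in WT and 1.84 in SELP -/-, beside -0.01 in each genotype over all probe sets.

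**Figure D2:**
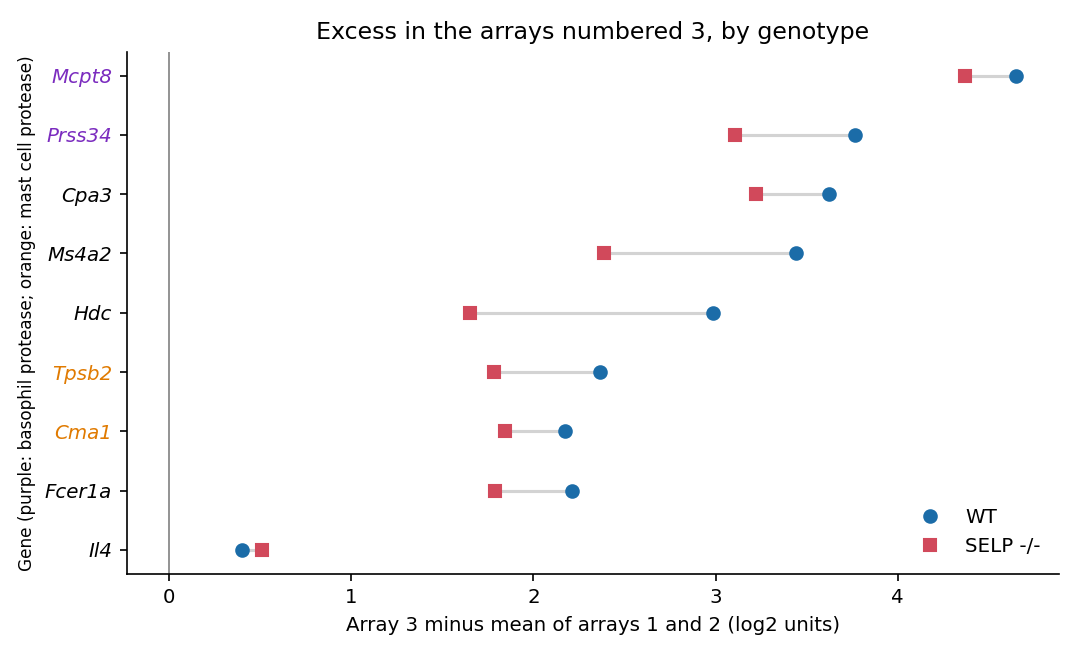
Number 3 excess of each of the 9 genes in WT and in SELP -/- HSC (log2 units, 1 value per genotype and gene, no error bars since each genotype has 1 such array). Mcpt8 shows the largest excess in both, at 4.65 and 4.37, and Il4 the smallest, at 0.40 and 0.51.

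Between the genotypes, none of the 9 genes separated WT from SELP -/- arrays, and none passed the test. The 3 values of a genotype overlapped those of the other for all 9, while they lay wholly apart for 5.56% of all probe sets. The mean log2 level of Mcpt8 (± SD, n = 3 a genotype) was 11.07 ± 2.69 for WT and 11.04 ± 2.52 for SELP -/-, a difference of -0.02 (SELP -/- minus WT). That of Prss34 was 10.50 ± 2.19 and 10.54 ± 1.81. Of the 9 genes, 6 passed the filter on dim probe sets and 3 did not (Cma1, Ms4a2 and Il4). Tpsb2 and Fcer1a passed it only through the arrays numbered 3. In limma's fit across 17289 probe sets, 0 of the 6 were called, with a percentage called of 0 over all probe sets, 122 of which had an unadjusted p under 0.05. The unadjusted p of the 6 genes ran from 0.791 for Fcer1a to 0.988 for Mcpt8, each with an adjusted p of 1. With 1 high array in each genotype the SE were wide, from 0.73 for Fcer1a to 1.63 for Mcpt8.

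Taking same-numbered arrays as pairs (the replicate number as a block) narrowed the errors and gave 0 calls as well, with 630 probe sets under an unadjusted p of 0.05. The SE of the 6 genes then ran from 0.12 for Mcpt8 to 0.26 for Hdc, and the limma adjusted p from 0.983 to 0.996. The 95% interval of the difference was -0.31 to 0.26 for Mcpt8, -0.50 to 0.59 for Prss34 and -0.59 to 0.31 for Cpa3. It was -0.49 to 0.17 for Tpsb2, -0.72 to 0.51 for Hdc and -0.13 to 0.53 for Fcer1a. All 6 intervals held 0; they are not adjusted for the number of probe sets tested.

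The sign of the genotype difference varied with the array number. It was below 0 in the arrays numbered 3 for 9 of 9 genes, from -0.08 for Fcer1a to -0.996 for Hdc. In the arrays numbered 2 it was above 0 for 7 of 9, with 0.80 for Prss34 as the highest and -0.46 for Il4 as the lowest. In those numbered 1 it was above 0 for 4 of 9, from -0.48 for Cpa3 to 0.57 for Fcer1a. The median difference of the 9 genes over all arrays was -0.11, beside 0.00 over all probe sets. Leaving out 1 array turned the sign for 8 of the 9 genes, Il4 being the exception: without WT 3 the difference of Mcpt8 was 1.53, and without SELP -/- 3 it was -1.48.

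**Figure D3:**
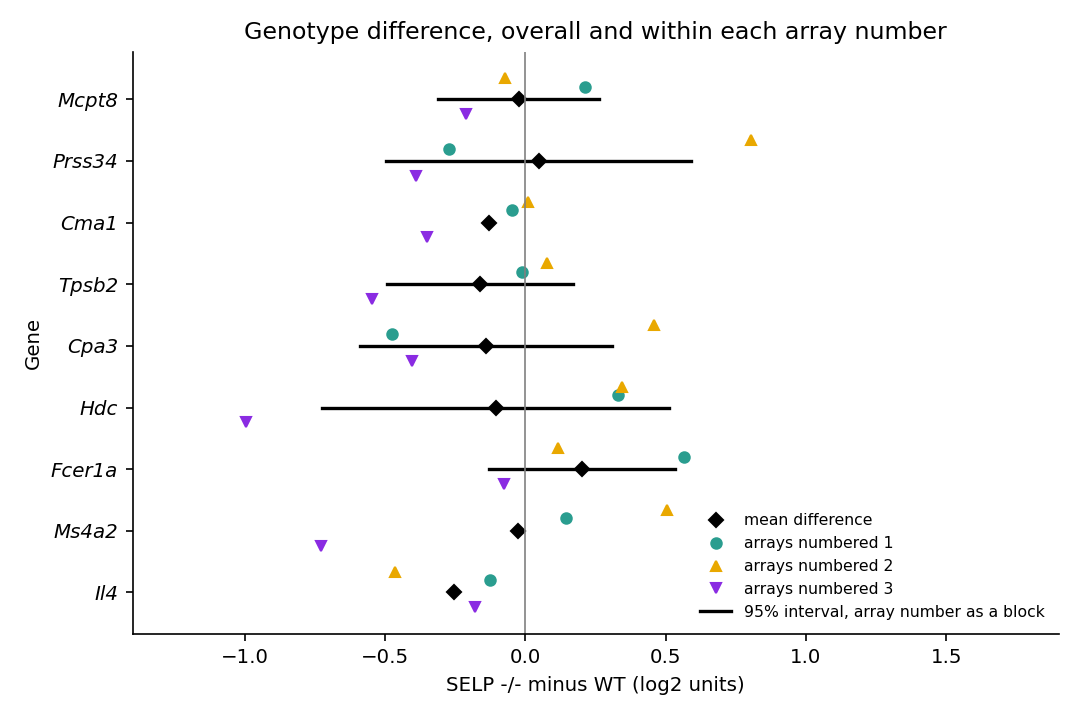
Difference in log2 level, SELP -/- minus WT (x axis), of each of the 9 genes: black diamonds give the mean over the 3 array numbers, coloured markers the difference within each number, and bars the 95% interval with the number as a block for the 6 tested genes. All 9 purple markers (arrays numbered 3) lie left of 0, and every drawn interval crosses 0.

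WT 3 was higher than SELP -/- 3 for all 9 genes, against 49.9% of all probe sets and 54.2% of those with both arrays numbered 3 above the other 4. The excess was larger in WT for 8 of 9 (all but Il4), against 62.3% of the latter. Whether the excess differs between genotypes was tested with limma as an interaction, a test added after these values were seen, in which only the arrays numbered 1 and 2 give the error. It called 9 of 17289 probe sets (0.0521%), Xist among them, and 0 of the 6 genes. The genes were picked on these array 3 levels and each genotype has 1 such array, so no p is given for them and nothing is read from that count. As a description, the excess in SELP -/- minus that in WT ran from -1.33 for Hdc to 0.11 for Il4, with -0.58 for Tpsb2 and a median of -0.42.

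Genes that act with these 9 were taken from a list of 63, of which 59 had a probe set and 45 were tested for genotype, with 0 called by limma and 1 (Il13) under an unadjusted p of 0.05. Both arrays numbered 3 were above the other 4 for 35 of the 59, below them for 4 and neither for 20, beside the 17.0% and 20.0% of all probe sets given above. The median excess of the 59 was 0.79 in WT and 0.40 in SELP -/-. The list was made with earlier results of these arrays known.

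Among other granule proteases, 6 of 7 were higher on both arrays numbered 3. Granzyme B (Gzmb), best known from cytotoxic lymphocytes, measured 8.35, 7.94 and 12.48 on the WT arrays and 7.91, 8.45 and 11.96 on the SELP -/- arrays, an excess of 4.34 and 3.78. The chymase Mcpt4 had 2.10 and 2.45, and cathepsin G (Ctsg), a protease of neutrophil and mast cell granules, had a mean of 1.30. Ctsg measured 12.64, 12.17 and 13.605 on the WT arrays and 13.14, 11.89 and 13.92 on the SELP -/- arrays. The low arrays numbered 2 thus make up part of its excess. Among other basophil-enriched genes all 8 were higher. Ccr2, 1 of the 8, stands among the monocyte genes below too, so they are not a count for basophils alone. Cyp11a1, the first enzyme of steroid synthesis, had an excess of 4.60 in WT and 3.60 in SELP -/-, Il6, an inflammatory cytokine, had 4.09 and 2.90, and the receptor Cd200r3 had 3.93 and 2.72. Each of these 3 had a larger excess in WT, as 8 of the 9 genes had.

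Mast cell-enriched genes were mixed, with 5 of 9 higher, 1 lower and a median excess of 0.41 in WT and 0.24 in SELP -/-. Tph1, the serotonin-making enzyme of mast cells, had 2.83 and 2.21, and Gata2, the transcription factor of the lineage, had 1.26 and 0.46. Kit, the stem cell factor receptor of both HSC and mast cells, measured 12.25, 12.42 and 10.58 on the WT arrays and 12.18, 12.52 and 11.11 on the SELP -/- arrays, an excess of -1.75 and -1.24. Mrgprb1 and Mrgprb2, receptors of connective tissue mast cells chosen here after their values were seen, had mean excesses near 0, with levels between 6.57 and 7.25 on all 6 arrays. Tpsab1, the other tryptase and likewise chosen after its values were seen, had 0.99 and 0.40. Kit stands among the HSC genes too, and was lowest where Mcpt8 and Cma1 were highest.

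IgE receptor partners and signalling genes were higher for 3 of 8 and lower for 1. Fcer1g, the signalling chain that the IgE receptor shares with other Fc receptors, measured 10.51, 10.48 and 13.18 on the WT arrays and 10.50, 10.52 and 13.01 on the SELP -/- arrays, an excess of 2.68 and 2.51. The adaptors Lat2 and Lat had 1.61 and 1.07, and 1.04 and 0.02. Cytokine receptors of the lineage were higher for 5 of 8. Csf2rb2, a beta chain of the IL-3 receptor, had a mean excess of 3.41. Csf2rb, the beta chain shared by the IL-3, IL-5 and GM-CSF receptors, had 2.82. They are near-identical copies, so which of them the probes report is uncertain, and Il7r had 2.24 and 1.65.

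Transcription factors of the lineage were higher for 3 of 8 and lower for 2, beside 17.0% and 20.0% of all probe sets. Cebpa had 0.98 and 1.25, Runx1 1.28 and 0.57 and Spi1 0.58 and 0.61. The lower 2, named after their values were seen, were Stat5a and Stat5b, with mean excesses of -0.37 and -0.55. Of the type 2 cytokines, 0 of 5 were higher or lower on both arrays, beside the same 17.0% and 20.0%. With 5 genes, of which 1 (Il13) passed the filter on dim probe sets, nothing is read from that count. Il13 had an excess of 0.16 and 0.23, and its 3 WT values (9.40, 9.38 and 9.55) lay above all 3 SELP -/- values (9.10, 9.07 and 9.31). It did not pass limma's genotype test (unadjusted p = 0.0439, adjusted p = 1). Lipid mediator enzymes were higher for 5 of 6, with 5-lipoxygenase (Alox5) at 2.89 and 2.10, Ptgs2 at 1.10 and 1.27 and the prostaglandin D2 synthase Hpgds at 1.03 and 0.81.

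**Figure D4:**
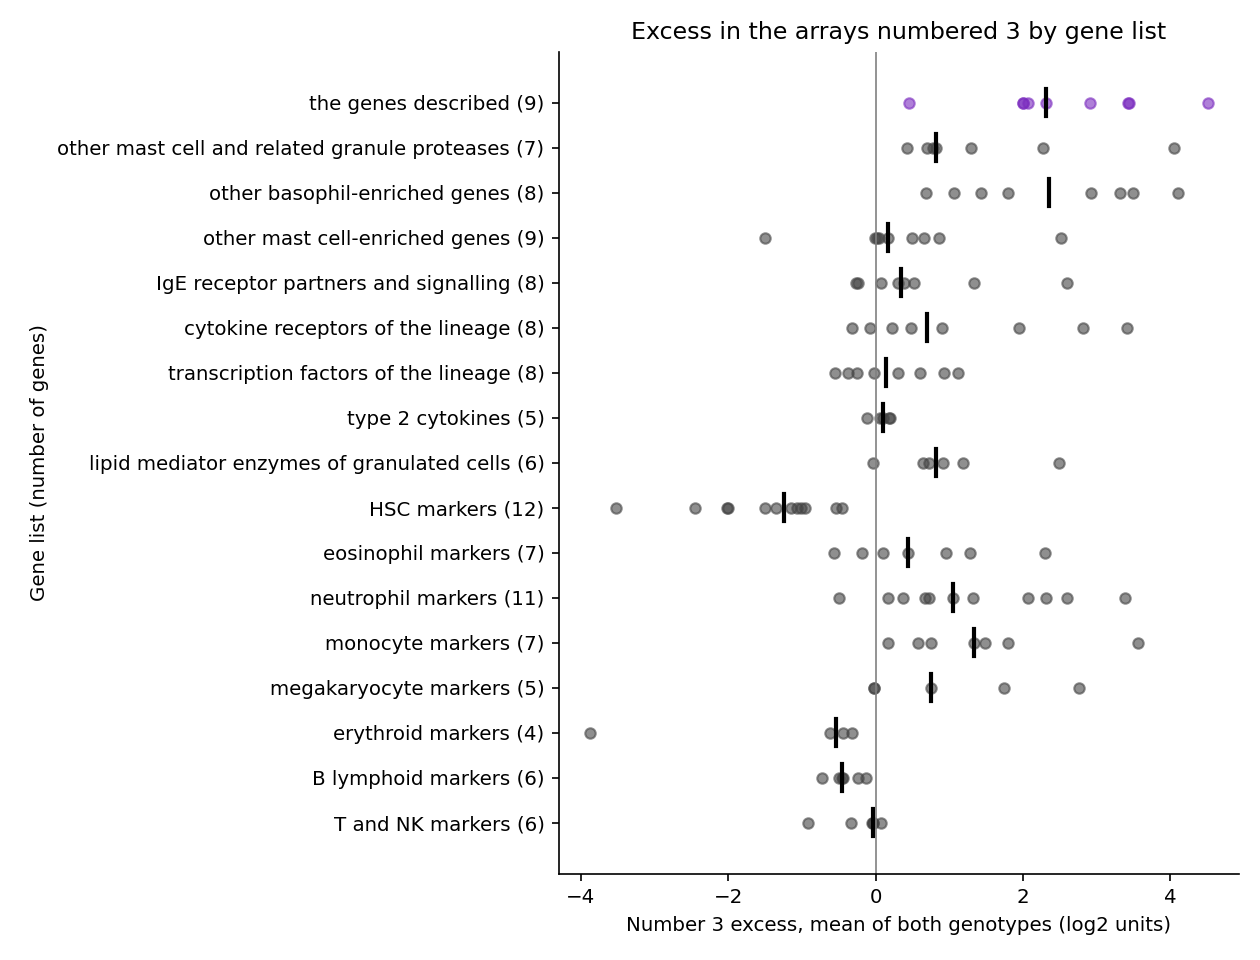
Number 3 excess averaged over both genotypes (log2 units) for every gene of the 9, of the related genes by role, and of the marker lists of HSC and other cell types, 1 point per gene, with a black bar at each list's median. The basophil-enriched points all lie right of 0 and 11 of 12 HSC genes are lower on both arrays numbered 3.

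The neighbours of the proteases on the chromosome, chosen after their values were seen, did not share one pattern. Only genes that RefSeq lists as protein-coding were taken, in its order. On chromosome 14, Cma1 and Mcpt8 lie in a run of 15 protease genes from Cma1 to Gzmb, 13 of them with a probe set of their own. Both arrays numbered 3 were above the other 4 for 6 of the 13, and the mean excess was over 1 for 5 (Cma1, Mcpt4, Mcpt8, Ctsg and Gzmb). The 6 granzymes from Gzme to Gzmc, which lie between Ctsg and Gzmb, had mean excesses from -0.19 to 0.13. On chromosome 17, Prss34 and Tpsb2, with mean excesses of 3.44 and 2.07, flank Prss28 and Prss29, with 0.08 and 0.10. Tpsg1, the next of these protein-coding genes after Tpsb2, had 0.82, and Tpsab1 is not in the run as taken. Large and near-zero excesses therefore alternated within both runs.

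**Figure D5:**
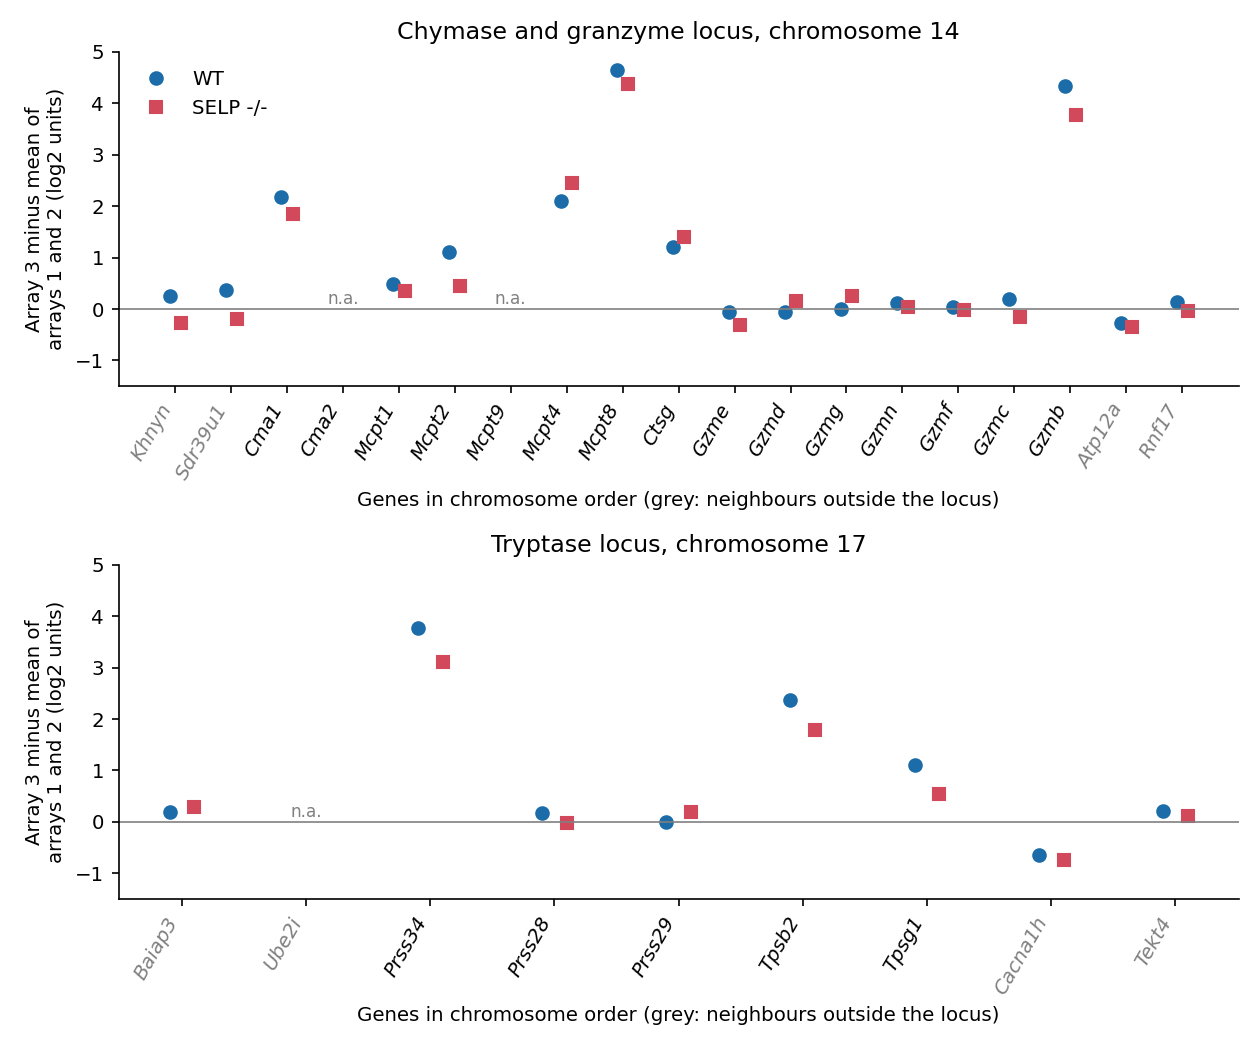
Number 3 excess (log2 units) of each protein-coding gene in WT and SELP -/- HSC in the protease runs on chromosomes 14 and 17, drawn in RefSeq's gene order with 2 flanking genes on each side, and "n.a." where no probe set carries the symbol alone. Mcpt8 (mean 4.51) and Gzmb (mean 4.06) stand out from the 6 granzymes between Ctsg and Gzmb, whose means lie from -0.19 to 0.13.

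The genes outside every list whose profile over the 6 arrays was closest to that of Mcpt8 were Ccl6, a chemokine, the receptors Cd200r4, Lilrb4a and Lilr4b, and C3ar1, the receptor for complement C3a. Closeness was the root mean square difference of the deviations from each gene's own mean, which ran from 0.24 for Ccl6 to 0.35 for C3ar1. Pearson's r over the 6 arrays ran from 0.989 to 0.996, and since all points share the same 2 high arrays it describes little more than these. Ccl6 measured 8.88, 8.75 and 13.27 on the WT arrays and 8.76, 8.62 and 12.63 on the SELP -/- arrays. Lilrb4a and Lilr4b are close copies and uncertain. Closest to Cpa3 were Scin, which severs actin filaments, the aminopeptidase Anpep, the cystine transporter Slc7a11, the lipase Lipg and Apol7c, with differences of 0.20 to 0.33 and r from 0.983 to 0.996.

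Some markers of other cells were also high on these arrays. Of all probe sets, 17.0% were higher on both arrays numbered 3 and 20.0% lower. Monocyte genes were higher on both arrays numbered 3 for 5 of 7, with a mean level of 9.28 to 9.41 on the arrays numbered 1 and 2, 10.56 on WT 3 and 10.90 on SELP -/- 3. Adgre1, the macrophage marker F4/80, had an excess of 3.78 and 3.34. Ccr2, counted among the basophil-enriched genes too, had a mean of 1.79. Neutrophil genes were higher for 6 of 11 and lower for 1, with mean levels of 9.84 to 11.17 against 11.83 and 11.71. Cxcr2 and S100a8 had mean excesses of 3.39 and 2.60. S100a8 measured 10.87, 8.33 and 12.31 on the WT arrays and 10.34, 8.75 and 12.045 on the SELP -/- arrays. The low arrays numbered 2 thus make up part of its excess. Eosinophil genes were higher for 4 of 7 and lower for 1, with mean levels of 8.70 to 8.79 against 9.39 and 9.34. The peroxidase Epx had 2.35 and 2.26 and the ribonuclease Ear6 1.31 and 1.25. Il5ra was the lower 1, with a mean excess of -0.56, and Ccr3 and Siglecf had -0.18 and 0.10. These last genes were named after their values were seen. Megakaryocyte genes were higher for 3 of 5, at 9.78 to 10.72 against 11.76 and 10.98, with Ppbp at 3.43 and 2.09 and Pf4 at 2.30 and 1.18.

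Erythroid genes were lower for 2 of 4, with Car1 at -3.96 and -3.79. B lymphoid genes were lower for 2 of 6, and T and NK genes for 1 of 6. Of all probe sets 20.0% were lower, and with so few genes nothing is read from these counts. Of the HSC genes, Hlf measured 12.45, 12.37 and 8.88 on the WT arrays and 12.13, 12.53 and 8.81 on the SELP -/- arrays, and Angpt1 had an excess of -2.48 and -2.43. Actb, a housekeeping gene, had -0.08 and 0.05. The part of these cell types, and of the lower HSC genes, in the levels of the 9 basophil and mast cell genes was not tested.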

How the data were processed

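The authors' deposited values are linear probe set intensities of a 1-colour Affymetrix whole-transcript mouse array. The submitters' processing notes list MAS5 without a version, and the labels' protocols describe amplified, biotin-labelled total RNA. The intensities were multiples of 0.5 with lowest values of 43 to 55, so scaling or background subtraction was not visible and the scale of MAS5, if applied, is unknown. The table has no detection calls and names no genome build. Arrays give no read depth, and their number limits the precision.

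Intensities were corrected with normexp (offset 50), log2 transformed and quantile normalized over the 6 arrays in limma 3.58.1 under R 4.3.3. Probe sets under the 40th percentile of mean level were left out of tests, which kept 17289. Genotype was fitted with lmFit and eBayes with a variance trend, two-sided, with Benjamini-Hochberg adjustment and a threshold of 0.05. Fits that leave out an array kept the normalization and filter of all 6. For the block, the numbers of the labels were taken as pairs. Deviations from the genotype means correlated at 0.43, 0.53 and 0.81 between arrays numbered 1, 2 and 3. WT 2 and SELP -/- 1 correlated at 0.51 too, and WT 1 and SELP -/- 2 at 0.37. With both arrays numbered 3 far from the rest, these values cannot show that the arrays numbered 1 and 2 are matched by number. The scripts were tested on simulated data.

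Names came from the platform annotation, updated through RefSeq (GRCm38.p6): 21780 probe sets had 1 symbol, 1605 several and 5430 none. Where a listed gene had several probe sets, the brightest was used. Named are all 10 genes, up to 3 per role of the related list and up to 2 per cell type list by largest absolute mean excess, Hlf, the 5 closest profiles to Mcpt8 and to Cpa3, Actb and Xist; Gapdh and Ddx3y are not named here. Genes outside that rule carry a remark that their values had been seen. The genes, lists and rules were chosen with earlier results of these data known. Alternatives changed the background correction, the normalization, the filter, the variance trend, the pairing and the arrays used.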

Additional observations from a re-analysis of the deposited data

Results flagged for a closer look

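The difference of the number 3 excess between the genotypes was tested across all probe sets with limma as an interaction, and 9 of 17289 probe sets passed an adjusted p of 0.05, the lowest being 0.0274. Xist was among those with that lowest value, with an excess of -1.15 in WT and -5.21 in SELP -/-. It was lower on both arrays numbered 3 than on those numbered 1 and 2, and by far more on SELP -/- 3. None of the 6 tested basophil and mast cell genes was among the 9. Each genotype has 1 array numbered 3, and only the arrays numbered 1 and 2 give the error, so a call here compares 2 single arrays and not the genotypes.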

How the results depend on the processing

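The genotype test called 0 probe sets under every alternative run, the replicate block (0 calls) and leaving out each array in turn included, except with the arrays numbered 1 and 2 alone, where 4 were called, all lower in SELP -/- and none of them one of the 9 genes. No genotype difference of Mcpt8, Prss34, Tpsb2, Cpa3, Hdc or Fcer1a passed the threshold under any alternative that tested it (limma adjusted p 0.962 to 1). Cma1 and Ms4a2 were tested only without the filter, and Il4 there and without background correction, and none passed. Signs turned without normalization for Mcpt8 (0.061) and Hdc (0.019), with a normexp offset of 16 for Ms4a2 (0.011), and with the arrays numbered 1 and 2 alone for Mcpt8 (0.070), Tpsb2 (0.032), Hdc (0.34) and Ms4a2 (0.32). Leaving out each array in turn gave -1.48 to 1.53 for Mcpt8, -0.99 to 1.30 for Prss34, -0.74 to 0.59 for Cma1, -0.76 to 0.63 for Tpsb2, -1.22 to 1.07 for Cpa3, -0.77 to 0.89 for Hdc, -0.40 to 0.94 for Fcer1a and -0.82 to 1.12 for Ms4a2.

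The median number 3 excess over the 9 genes, 2.99 in WT and 1.84 in SELP -/-, became 2.81 and 1.54 without background correction, 2.73 and 1.56 with median centring, and in SELP -/- 2.00 with offset 16 and 1.65 without normalization. Leaving out an array gave 2.66 to 3.31 in WT. Without normalization the median of all probe sets was 0.30 in WT and 0.08 in SELP -/-. Under all 5 normalizations both arrays numbered 3 stayed above the other 4 for 9 of 9 genes. The excess of the basophil proteases over the mast cell proteases stayed between 1.79 and 2.07. Of the 59 related genes, 34 to 43 were higher on both arrays numbered 3. The cause of these changes was not tested. Low signal over background limits the ratios of Cma1, Tpsb2, Fcer1a and Ms4a2.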

Other observations

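Among the 20 largest mean number 3 excesses were genes outside the lists used above, given here as values chosen after they were seen. Chil3, a chitinase-like protein of macrophages, had 4.72, and Akr1c18, a steroid-metabolising reductase, had 4.33. Gpnmb, a glycoprotein of macrophages, had 4.25, Mrgpra6, a G protein-coupled receptor, had 4.04, Fabp4, a lipid-binding protein, had 3.92 and Cd36, a fatty acid receptor, had 3.88.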
